A study of Mus musculus with 2 samples.

Results

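The cells described here were the deeply sequenced spinal cord microglia with the lowest share of immediate early transcripts, called low-early cells below. They were chosen by measured values in 3 steps. Cells were kept if over 300 genes were detected and mitochondrial transcripts stayed under 5% of their UMIs (unique molecular identifiers, each standing for 1 captured transcript). Of these, cells with at least 1200 UMIs and a ribosomal protein gene share of 2.5% to under 8% formed a pool of 424. Low-early cells were the pool cells in which Fos, Jun, Junb, Ier2, Egr1, Atf3, Dusp1, Zfp36 and Btg2 together made up no more than the pool median of 1.59% of UMIs. The rule found 212 low-early cells (168 from control and 44 from 4E-BP1-cKO mice) among 1592 kept cells of 1690 deposited barcodes.

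The study asked how loss of the translational repressor 4E-BP1 in microglia changes these cells and pain sensitivity. Both libraries came from the lumbar spinal cord of male mice aged 8 to 10 weeks, dissociated with collagenase IV and sorted as CD45lo CD11b+ CX3CR1+ cells. In the 4E-BP1-cKO (Eif4ebp1 fl/fl:TMEM119CreERT2), Cre is driven by the microglial Tmem119 promoter and was induced with 4-hydroxytamoxifen from postnatal day 4 to day 9. The control library is labelled WT, and for this assay the study describes Eif4ebp1 fl/fl mice as controls, with no Cre driver named for this library. Each genotype was 1 library of a number of mice that is not given, so no difference between genotypes has a replicate check. The control library held 4914298 UMIs and the 4E-BP1-cKO library 1769927, of which low-early cells carried 1076674 and 255611.

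Microglia are the resident macrophages of the brain and spinal cord. In undisturbed tissue they express a homeostatic set of receptors, among them P2ry12, which senses nucleotides, Cx3cr1, which binds neuronal fractalkine, and Mertk and Sirpa, which promote and restrain phagocytosis. Immediate early genes encode transcription factors and feedback inhibitors that are transcribed within minutes of a stimulus, and they are also known to respond to tissue dissociation, as are heat shock genes and chemokines. Both libraries were dissociated, so a state present in the cord and one that arose during preparation cannot be told apart.

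Low-early cells were a smaller part of the 4E-BP1-cKO library. They made up 14.6% of kept control cells (exact 95% Clopper-Pearson interval 12.6 to 16.8) and 9.89% of those in the 4E-BP1-cKO library (7.28 to 13.05), which is -4.76 percentage points from control (-8.16 to -1.02). Within the pool the shares were 55.3% (49.5 to 60.9) and 36.7% (28.1 to 45.95), or -18.6 points from control (-28.9 to -7.66). The intervals of the differences combine the exact limits of both shares by Newcombe's square-and-add method. With a limit at each library's own median, which makes the pool shares equal by construction, low-early cells were 13.3% of kept control and 13.5% of kept 4E-BP1-cKO cells. All intervals given here cover counting error only and not the spread between mice. The 3 members nearest the limit had early shares of 1.577%, 1.586% and 1.587%, the 3 pool cells just above it all had 1.594%, and 58 pool cells lay within 10% of the limit, so the class is a range of a continuous measure. No cell barcode was shared by the libraries.

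**Figure D1:**
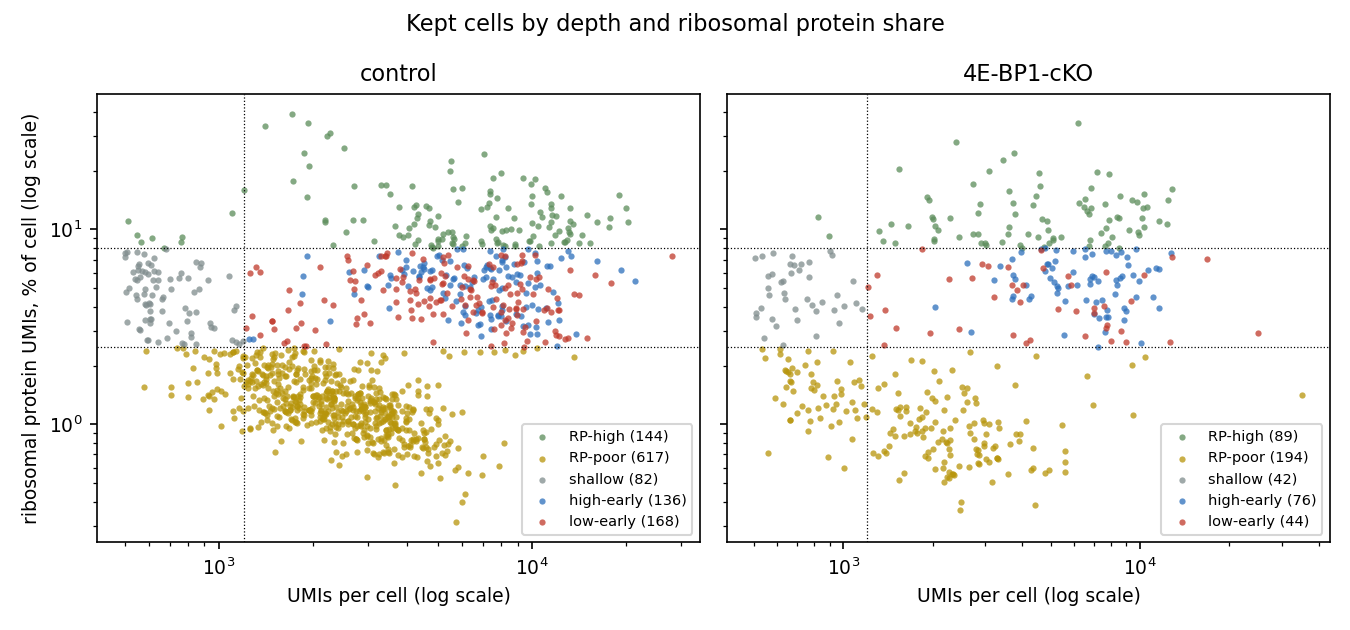
Each point is 1 kept cell, with its UMIs on the horizontal axis and its ribosomal protein gene share in percent on the vertical axis (both log scales), in 1 panel per library and coloured by class. The 168 control and 44 4E-BP1-cKO low-early cells lie among the high-early cells of the pool. The rule's limit of 2.5% sets them apart from the RP-poor cells below, which reach up to it.

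The other kept cells fell into 4 classes that serve as the background. High-early cells were the pool cells above the limit and numbered 212 (136 control, 76 4E-BP1-cKO). Ribosome-poor (RP-poor) cells with a ribosomal share under 2.5% numbered 811, cells with a share of 8% or more (RP-high) numbered 233, and shallow cells of the pool's ribosomal range with under 1200 UMIs numbered 124. Control low-early cells had a median of 5971 UMIs and 2408 genes and 4E-BP1-cKO low-early cells 4444 UMIs and 2002 genes, against 7006.5 and 6834.5 UMIs in the high-early cells. The median ribosomal share was 4.43% and 4.15% in low-early cells against 5.40% and 5.52% in high-early cells. A low early share was not particular to low-early cells, since RP-poor cells had medians of 0.959% and 1.20%, beside 0.887% and 1.08% in low-early cells. Among control low-early cells the early share had a Spearman rho of 0.145 with UMIs (n = 168) and among 4E-BP1-cKO low-early cells -0.0076 (n = 44). These are descriptions over cells of 1 library that share its preparation.

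The microglial label held for nearly all low-early cells. UMIs of at least 3 of 12 microglial markers were found in 167 of 168 control and 43 of 44 4E-BP1-cKO cells, and the 12 markers summed to 16072 and 15281 CPM (UMIs scaled so that each class and library sums to 1000000), against 12405 and 12066 CPM in high-early cells. Markers of monocytes, neutrophils, NK cells and neurons each summed to at most 11.7 CPM in either library. T cell markers summed to 3.72 and 27.4 CPM, with Cd3e, Cd3g, Trac and Cd8a at 0 in both libraries. Border-associated macrophage markers summed to 136 and 46.9 CPM, led by Stab1, with Cd163 and Lyve1 at 0 in both libraries. B cell markers summed to 149 and 164 CPM, almost wholly Ighm, with Ms4a1 at 0 in both libraries, and astrocyte markers to 117 and 82.2 CPM, almost wholly Slc1a3.

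A few low-early cells carried RNA of other cells. Oligodendrocyte markers summed to 80.8 CPM in control cells and 458 CPM in 4E-BP1-cKO cells, where all 6 markers were present. Endothelial markers summed to 217 CPM in control cells, with 63 UMIs of Flt1 in 2 cells and all 6 markers present, and to 3.91 CPM in 4E-BP1-cKO cells, with 5 of 6 markers at 0. In all, 7 control cells and 1 4E-BP1-cKO cell had UMIs of at least 3 markers of another type, and they held 5.44% and 0.509% of the low-early UMIs. The counts given below were recomputed without such cells for homeostatic genes and cytokines against all other cells, for these and the other immediate early and heat shock genes against high-early cells, and for heat shock genes between libraries, and each moved by at most 1 gene.

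The 5 genes that mark these cells were higher in low-early cells than in high-early cells of the same library, in both libraries. Clec1b, a C-type lectin receptor best known from platelets, was at 19.5 CPM in control and 47.0 CPM in 4E-BP1-cKO low-early cells and at 8.16 and 5.83 CPM in high-early cells. Those Clec1b levels rest on 21 UMIs in 17 cells and 12 UMIs in 8 cells, too few for the minimum of 100 UMIs used for the gene comparisons. Mertk was at 1292 and 1193 CPM in low-early cells against 904 and 721 CPM in high-early cells, and Sirpa at 776 and 865 CPM against 580 and 647 CPM. P2ry12 was at 1644 and 1373 CPM against 1240 and 1089 CPM, and Cx3cr1 at 3045 and 2746 CPM against 2480 and 2350 CPM.

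The order of the classes differed between markers. P2ry12 and Cx3cr1 were lowest in RP-poor cells of all classes, at 656 and 644 CPM and at 1033 and 971 CPM. Mertk was higher in RP-poor cells than in low-early cells, at 1422 and 1260 CPM, and lowest in RP-high cells, at 575 and 514 CPM. Sirpa in RP-poor cells, at 684 and 821 CPM, lay just below low-early cells. Gpr34, a lysophosphatidylserine receptor of microglia, was at 1058 and 955 CPM in low-early cells, above the high-early (611 and 743 CPM), RP-high (626 and 543 CPM) and RP-poor cells (346 and 287 CPM).

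**Figure D2:**
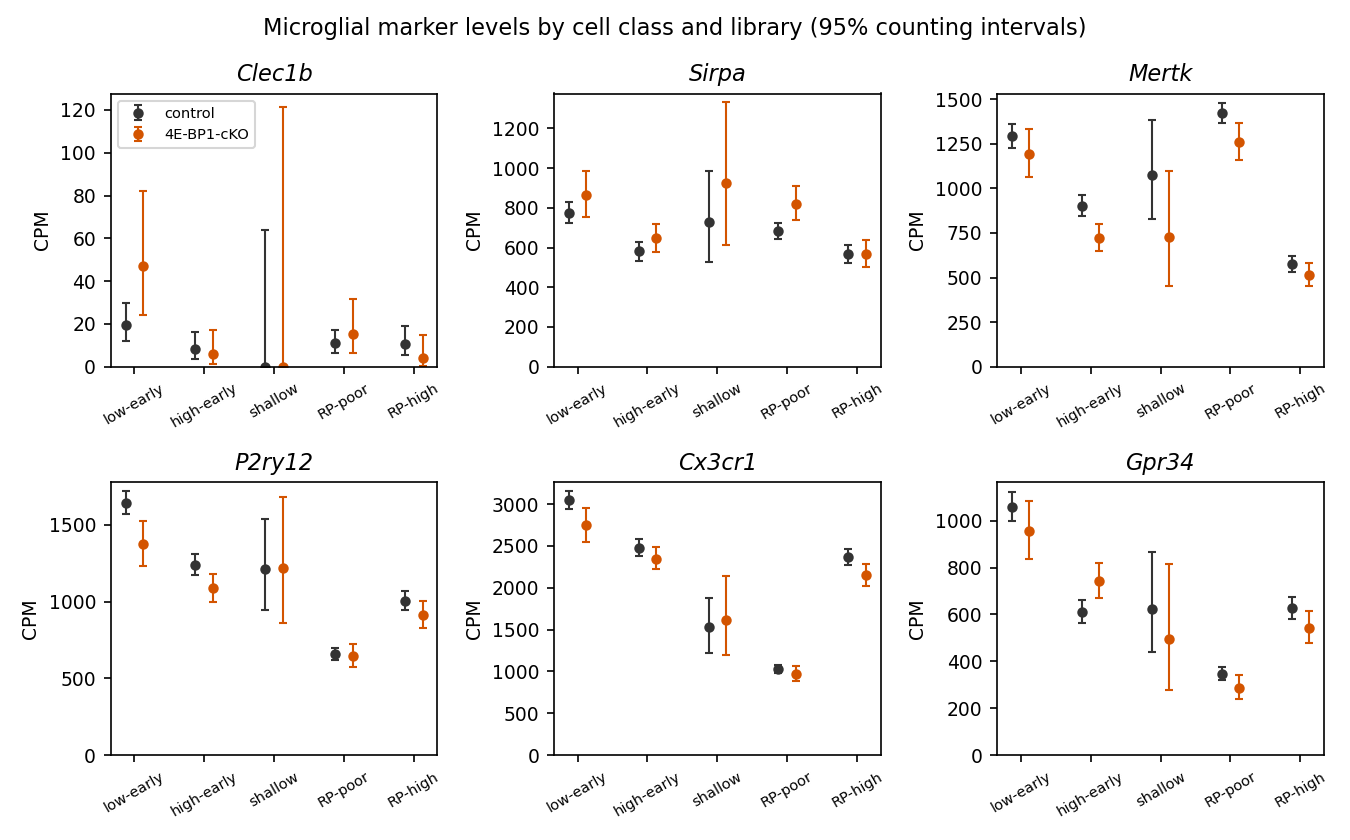
CPM of 6 microglial genes (vertical axes, each starting at 0) in the classes of cells (horizontal axis), with control and 4E-BP1-cKO side by side and 95% Poisson counting intervals as bars. P2ry12, Cx3cr1 and Gpr34 peak in the low-early cells of both libraries, while Mertk in RP-poor cells (1422 and 1260 CPM) is above its low-early levels of 1292 and 1193 CPM.

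Cells with a UMI were also counted after each cell was reduced at random to 1200 UMIs, a step that removed no low-early cell but 50 RP-poor cells from control and 59 from the 4E-BP1-cKO. P2ry12 was then found in 82.7% of control and 77.3% of 4E-BP1-cKO low-early cells, in 75.7% and 69.7% of high-early cells and in 47.4% of RP-poor cells of each library. Mertk was found in 71.4% and 61.4% of low-early cells, against 67.6% and 47.4% of high-early and 70.2% and 74.8% of RP-poor cells. Fos, which the rule used, was still found in 61.9% and 68.2% of low-early cells, and Ccl4, a chemokine, in 69.0% and 63.6%. Low-early cells were therefore low in early genes by rank, and most of them had a UMI of Fos and of Ccl4. No class of kept cells lacks these genes, so the share that free RNA gives was not measured.

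Gene by gene, low-early cells were set against all other kept cells within each library. A gene was tested for size if it had at least 100 UMIs over both sides and libraries and 20 in each library, and it was counted when the mean of both libraries' log2 ratios of CPM + 1 passed 1.5-fold with the same direction in both. Of 7115 such genes, 622 (8.74%) were higher and 671 (9.43%) lower. Because the cells were selected on their values, these counts describe the low-early cells and carry no test. Scaling by edgeR's TMM factors moved the median of all genes by -0.15 and changed the split to 283 higher and 1021 lower, so lists are read beside the median of all genes, 0.07.

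Homeostatic genes were the group most often higher. Of 33 tested, 13 were higher and none lower, with a median log2 ratio of 0.46. The 34 genes of the list summed to 50254 CPM in control low-early cells against 34392 CPM in the other control cells, and to 49364 against 39492 CPM in the 4E-BP1-cKO. RP-high cells were at close to the same level, 48289 and 49384 CPM, and RP-poor cells at 21173 and 21588 CPM, so the high sum was not particular to low-early cells. With TMM scaling 6 of the 33 were higher, while the median stayed 0.38 above that of all genes under both scalings.

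Ecscr, first described in endothelial cells, was at 134 against 69.0 CPM in control and at 145 against 70.3 CPM in the 4E-BP1-cKO (mean log2 ratio 0.99). Gpr34 was at 1058 CPM in control low-early cells against 498 in the other cells, and at 955 against 533 CPM in the 4E-BP1-cKO (0.96). P2ry13, a nucleotide receptor next to P2ry12 in the genome, was at 326 against 153 CPM and at 313 against 172 CPM (0.97). Fcrls, an Fc receptor-like scavenger receptor, was at 444 against 255 CPM and at 512 against 286 CPM (0.82). All of these were higher in low-early cells of both libraries and under each of 19 alternative settings. P2ry12 had a mean log2 ratio of 0.73 and Cx3cr1 of 0.67, both past 1.5-fold, whereas Mertk at 0.42 and Sirpa at 0.33 were not. Also among the 13 were Ltc4s, Olfml3, Rnase4, Sall1, Slc2a5 and Sparc.

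Related lists differed in how many members passed the fold, beside 8.74% of all genes higher and 9.43% lower. Of 12 lineage transcription factors only Sall1, which maintains microglial identity, and Maf were higher (median 0.07, equal to all genes), and none of 12 TGF-beta signalling genes passed the fold. Among 14 inhibitory receptors Cd47, Pilra and Siglece were higher and Lilrb4a lower (median 0.43). Of 7 purinergic receptors and ectonucleotidases only P2ry12 and P2ry13, also in the homeostatic list, were higher (0.31), and of 15 phagocytic receptors and adaptors none was higher and Axl lower (0.32). Siglece, a sialic acid receptor, was at 34.4 against 16.4 CPM in control and at 50.9 against 16.9 CPM in the 4E-BP1-cKO, from 37 and 13 UMIs in low-early cells. Lilrb4a, another inhibitory receptor, was at 10.2 against 63.6 CPM in control but at 50.9 against 52.8 CPM in the 4E-BP1-cKO, so the control library alone carries that count. Of 22 lysosomal genes 2 were higher, Laptm5 among them (median 0.22), and of 34 oxidative phosphorylation genes Ndufb8, Ndufs5 and Uqcr10 (0.18). Both shares were close to the 8.74% of all genes. Lilrb4a and Axl, each the single lower gene of its list, are shares below the 9.43% of all genes that were lower.

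The lists of stimulus responses held many lower genes. Of all genes 9.43% were lower. Of 27 immediate early genes that the rule did not use, 16 were lower and 1, Dusp6, was higher (median -0.64), and 6 of 12 NF-kappaB genes were lower (-0.58). Of 17 cytokines and chemokines 10 were lower (-0.76, with medians of -0.34 in control and -0.85 in the 4E-BP1-cKO), and of 15 heat shock genes 10 (-0.64). The cytokine list summed to 5602 and 6040 CPM in low-early cells and to 4185 and 5268 CPM in RP-poor cells, so its low level was not particular to low-early cells. The other immediate early and heat shock lists were also low in RP-poor cells. The first summed to 8817 and 10363 CPM there, against 8386 and 8853 CPM in low-early cells. Heat shock genes summed to 8160 and 5895 CPM there, against 7340 and 4018 CPM. Cxcl2, a neutrophil chemoattractant, was at 97.5 CPM against 228 in control and at 78.2 against 458 CPM in the 4E-BP1-cKO (-1.87). Socs3, a feedback inhibitor of cytokine receptors, was at 176 against 407 CPM and at 243 against 611 CPM (-1.27). Stat5a, a transcription factor downstream of cytokine receptors, was at 27.9 against 84.3 CPM and at 7.82 against 62.9 CPM, the last from 2 UMIs (-2.21). Cxcl2, Socs3 and Stat5a were lower in both libraries.

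Of 12 disease-associated microglia genes, Apoe, Axl, Csf1 and Lpl were lower, where 9.43% of all genes were, and none higher (median 0.01). The list summed to 5118 against 4930 CPM in control, a ratio of 1.04, and its ratio in the 4E-BP1-cKO was 0.78. The other cells hold classes on both sides of low-early cells, whose sums were 5118 and 5035 CPM. RP-poor cells were at 2984 and 3352 CPM and RP-high cells at 8086 and 10020 CPM. Apoe, the lipid carrier that rises in reactive microglia, was at 474 CPM in control low-early cells against 1002 in the other cells and at 297 against 1737 CPM in the 4E-BP1-cKO (-1.81). The Apoe gap was present in both libraries, and its size differed between them, from -1.08 with control alone to -2.54 with the 4E-BP1-cKO alone. Trem2, the lipid-sensing receptor of that programme, was at 937 against 654 CPM and at 1002 against 786 CPM (0.43), not past the fold. Cd74, the invariant chain of class II antigen presentation, was at 64.1 against 138 CPM and at 54.8 against 168 CPM (-1.35). It was the lower one of 10 antigen presentation genes, a share near that of all genes, and the list's ratio was 1.01 in control and 0.82 in the 4E-BP1-cKO.

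Outside the lists the leading genes higher than in other cells included Gm5420, a predicted gene, at 80.8 against 23.3 CPM in control and at 86.1 against 21.6 CPM in the 4E-BP1-cKO (1.85). Acss1, a mitochondrial acetyl-CoA synthetase, was at 111 against 56.1 CPM and at 121 against 43.3 CPM (1.22). Pde3b, a cyclic nucleotide phosphodiesterase, was at 1683 against 1005 CPM and at 1608 against 785 CPM (0.89). Rnf122 (1.31), Cdk19 (0.90), 4933406I18Rik (0.78) and Arhgap5 (0.68) completed those that ranked first by the counting interval. At the lower end stood Phlda1 (-2.11), Sdc4 (-1.64), Ckap2l (-1.52), March3 (-1.34) and Gm14023 (-1.33), and, from the NF-kappaB list, Nfkbia (-1.05).

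**Figure D3:**
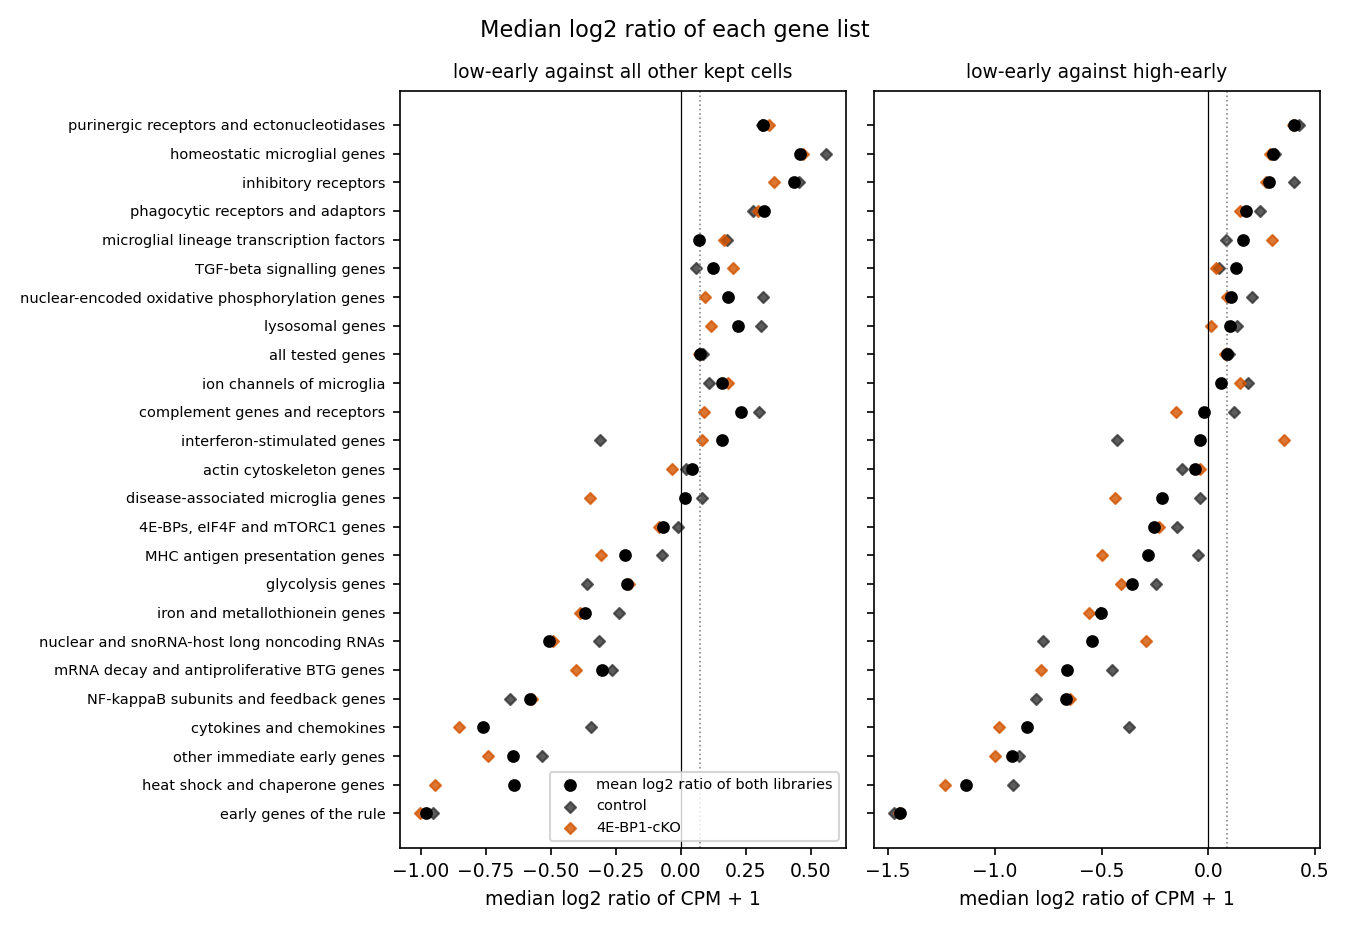
Median log2 ratio of each gene list (horizontal axis) for low-early cells against all other kept cells and against high-early cells, with diamonds for each library. The homeostatic list lies to the right of the median of all genes in both panels (0.46 and 0.30), and the heat shock list is at -0.64 and -1.14.

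Against high-early cells, which share the UMI minimum and the ribosomal range, 4481 genes could be compared, and 463 (10.3%) were higher and 397 (8.86%) lower in low-early cells. TMM scaling moved the median of all genes by -0.16, and the split became 206 higher and 613 lower. The 9 genes of the rule were all lower by construction. Fos was at 1203 and 1295 CPM in low-early cells against 4868 and 4215 CPM, and Egr1 at 798 and 1424 CPM against 3570 and 4143 CPM.

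Outside the genes of the rule, the heat shock and chaperone list separated the pool most fully under the main settings. Of its 15 genes 14 were lower in low-early cells, where 8.86% of all genes were, and only Hspa4 was not (0.13). The median was -1.14, beside 0.09 for all genes. The list summed to 7340 CPM in control low-early cells against 14363 in high-early cells, and to 4018 against 10571 CPM in the 4E-BP1-cKO. Hspa1a, the stress-inducible Hsp70, was at 745 against 1938 CPM in control and at 227 against 1343 CPM in the 4E-BP1-cKO (-1.97). Hspa8, the constitutive Hsc70, was at 883 against 1944 CPM and at 696 against 1907 CPM (-1.29), and Dnajb1, an Hsp40 cochaperone, at 132 against 376 CPM and at 78.2 against 321 CPM (-1.76). For Hspa1a, Hspa8 and Dnajb1 every one of 20 alternatives kept the change past 1.5-fold. The smallest was that of Hspa1a with the early share at 1200 UMIs, -0.78, where 11 of 15 genes of the list were lower (median -0.68). At a ribosomal share of 4 to 6% the other immediate early genes had a lower median than this list, -1.14 against -1.07.

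The other immediate early genes moved with the genes of the rule, 22 of 27 lower (median -0.92). They summed to 8386 against 15857 CPM in control and to 8853 against 16674 CPM in the 4E-BP1-cKO, a ratio of 0.53 in each. Klf6, a zinc finger factor, was at 1122 against 2152 CPM and at 1174 against 2024 CPM (-0.86), and Gadd45b, a stress sensor, at 246 against 690 CPM and at 332 against 848 CPM (-1.41). Of 11 NF-kappaB genes 8 were lower (-0.67), led by Nfkbia, the inhibitor that NF-kappaB induces against itself, at 734 against 2042 CPM and at 1088 against 2850 CPM (-1.43). Of 8 mRNA decay and BTG genes, Tob1, Tob2, Zc3h12a, Zfp36l1 and Zfp36l2 were lower and Pan3 higher (median -0.66). Beside the counts of these lists, 8.86% of all genes were lower and 10.3% higher.

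Cytokines and chemokines were lower to a different extent in each library. Over both, 12 of 16 were lower (median -0.85), where 8.86% of all genes were, but in the control library alone 4 of 12 were (median -0.37). The list summed to 5602 CPM in low-early against 7815 CPM in high-early control cells, a ratio of 0.72, and to 6040 against 13966 CPM in the 4E-BP1-cKO, a ratio of 0.43. Ccl4 was at 2779 against 3615 CPM in control and at 3005 against 7498 CPM in the 4E-BP1-cKO (-0.85), and with control alone its log2 ratio was -0.38. Ccl2, the monocyte chemoattractant, was at 228 against 477 CPM and at 203 against 618 CPM (-1.33). The wider gap of the 4E-BP1-cKO lay in its high-early cells, whose sum of 13966 CPM was above the 7815 CPM of control.

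Few homeostatic genes passed the fold against high-early cells. Of 33 tested, Mertk and Slco2b1, an organic anion transporter, were higher, where 10.3% of all genes were, and none was lower (median 0.30, beside 0.09 for all genes). The count ran from 0 of 33 with TMM factors and with each library's own median to 6 at a ribosomal share of 3 to 7%, at one of 4 to 6% and with members chosen by the other immediate early genes. Slco2b1 was at 523 against 283 CPM in control and at 462 against 330 CPM in the 4E-BP1-cKO (0.68). Mertk had a mean log2 ratio of 0.62 and P2rx7, an ATP-gated channel, of 0.73, and they passed 1.5-fold in 13 and in 12 of 20 alternatives. P2ry12 (0.37), Sirpa (0.42) and Cx3cr1 (0.26) did not pass the fold. No inhibitory receptor, lysosomal gene, TGF-beta signalling gene or ion channel passed it either.

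The leading higher genes against high-early cells were again mostly outside the lists. Gm35188, a predicted gene, was at 424 against 123 CPM in control and at 297 against 109 CPM in the 4E-BP1-cKO (1.61). Acss1 was at 111 against 45.9 CPM and at 121 against 27.2 CPM (1.69), and Pde3b at 1683 against 880 CPM and at 1608 against 575 CPM (1.21). Gm5420 (1.83), Usp50 (1.73), Cbfa2t2 (1.58), Hmbox1 (1.5), Ube3c (1.42), Cdk19 (1.12) and 4933406I18Rik (0.90) followed. Lower genes outside the lists included Phlda1 (-2.31), Marcksl1 (-1.73), March3 (-1.51) and 2410006H16Rik (-1.51).

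Of the pathway that the deletion addresses, few genes separated the low-early cells, in shares near or below those of all genes. Against all other cells Ddit4 and Eif4e were lower of 21 tested and none was higher, where 9.43% of all genes were lower. Eif4e encodes the cap-binding protein that 4E-BPs hold back. Compared with high-early cells, it was at 79.9 against 97.9 CPM in control and at 66.5 against 126 CPM in the 4E-BP1-cKO (-0.60). It passed the fold there in 12 of 20 alternatives. Of 17 genes of the 4E-BP, eIF4F and mTORC1 list tested against high-early cells, Tsc1 alone was higher and Eif4e alone lower (median -0.26). Of all genes 10.3% were higher and 8.86% lower. Tsc1, a subunit of the complex that restrains mTORC1, passed the fold in 11 of 20 alternatives, and its log2 ratio of 0.68 turned to -0.18 at a ribosomal share of 4 to 6%. Of 9 iron and metallothionein genes Ftl1, Hmox1, Mt1 and Tfrc were lower than in high-early cells (-0.50), where 8.86% of all genes were. Tfrc, the transferrin receptor, was at 39.9 against 118 CPM and at 39.1 against 89.4 CPM.

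Within the pool the levels were followed along 8 bins of 53 cells in order of early share, of which the first 4 are low-early cells. The lowest bin ran from 0.030% to 0.532% early share and the highest from 3.25% to 5.95%. Homeostatic genes summed to 55806, 55151, 45470 and 46210 CPM in the 4 low-early bins and to between 41423 and 45750 CPM in the high-early bins. The higher sum was thus found in the first and second bins, and the next ones were close to the first high-early bin. Control alone showed the same order (56992, 52804, 44531 and 47749 CPM), whereas the 4E-BP1-cKO had no steady one (47085, 71620, 47900 and 40231 CPM). Cst3 weighs heavily in these sums, and its part in each bin is not given here.

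Stimulus genes rose across the same bins. Other immediate early genes summed to 5322 CPM in the first bin, 10594 in the fourth and 19467 in the last, and Nfkbia went from 294 through 1331 to 3096 CPM. Heat shock genes summed to 5004, 6577, 7889 and 6772 CPM in the low-early bins and reached 17088 CPM in the last. P2ry12 was at 2058, 1819, 1288 and 1357 CPM in the low-early bins and fell to 1082 CPM in the last, and Mertk was at 1464, 1375, 1020 and 1344 CPM and then at 837 CPM. The 4E-BP1-cKO supplied 7, 9, 15 and 13 cells to the low-early bins and between 16 and 22 to each high-early bin, so its single bins are thinly filled.

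**Figure D4:**
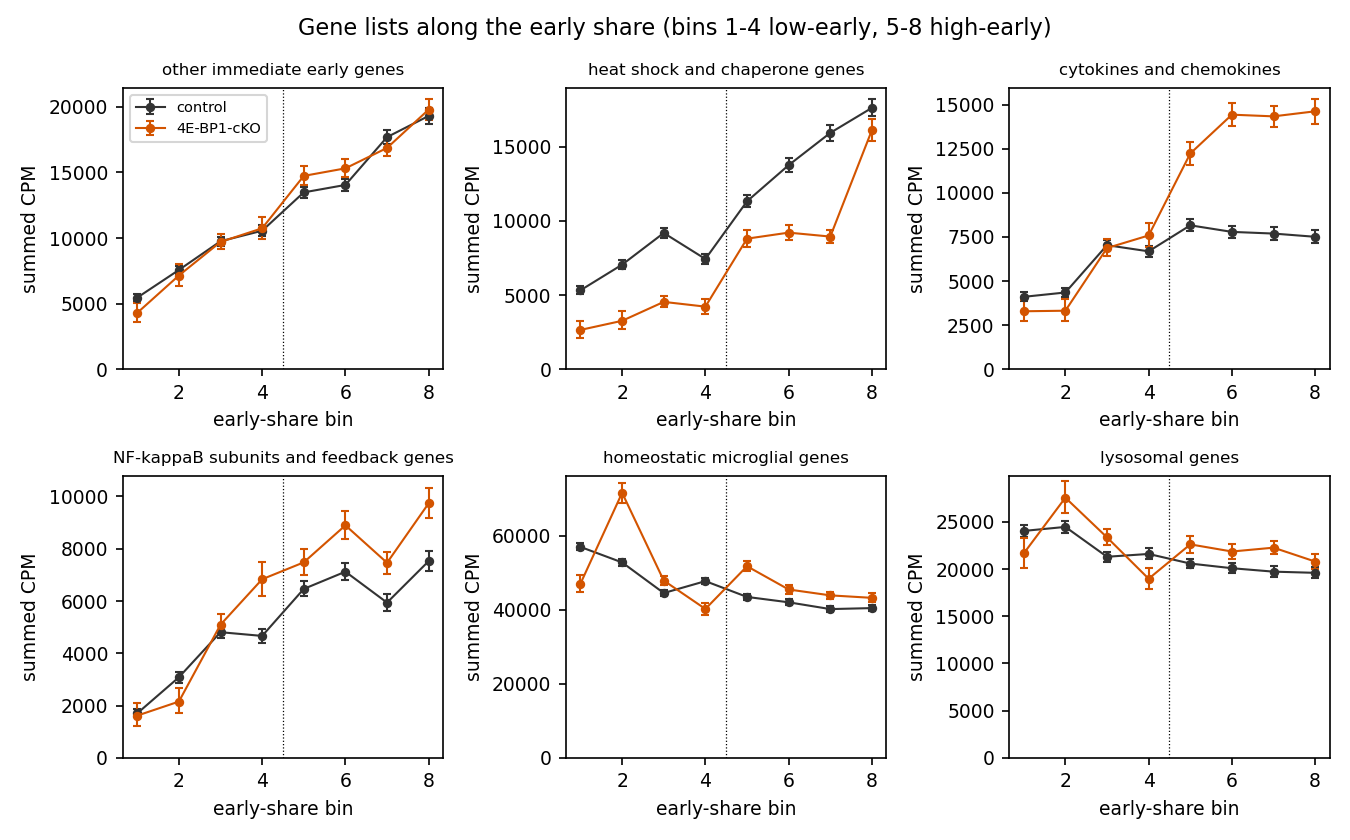
Summed CPM of 6 gene lists (vertical axes) along 8 bins of 53 pool cells ordered by early share (horizontal axis, bins 1 to 4 low-early and 5 to 8 high-early), with a line per library and 95% counting intervals. Other immediate early and heat shock genes rise along the bins, from 5322 to 19467 and from 5004 to 17088 CPM over both libraries, and homeostatic genes go from 55806 to 41423 CPM, without a steady fall in the 4E-BP1-cKO.

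Early genes are textbook targets of factors that bind 2 short promoter motifs, the cAMP response element TGACGTCA and the CArG box of serum response factor. Promoters of 300 bases (250 before to 50 after the start) were taken from RefSeq, build GRCm38.p6, and searched on both strands. The cAMP response element was in 588 of 32851 promoters (1.79%) and the CArG box in 535 (1.63%). Of the 9 genes of the rule 7 had a promoter there, and the element was in 2 of the 7, Dusp1 and Btg2, and the CArG box in 1, Zfp36. Of 32 promoters of 24 homeostatic genes none held the element and 1, of Gpr183, held a CArG box, and of 38 promoters of 23 other immediate early genes 1 held the element (Maff) and 6, start sites of Dusp5, Egr2 and Srf, a CArG box. A match is a description of these letters in these windows and not a site of binding. Both promoters with the element are shown 5′ to 3′ on the gene's strand because their genes, a phosphatase that switches off MAP kinases and an antiproliferative factor, were used to set low-early apart from high-early cells. Against all other cells these were the 2 of the 9 that were not past the fold. Dusp1 lies at chr17:26508423-26508722 on the minus strand and Btg2 at chr1:134079106-134079405 on the minus strand, and capitals mark the element, 143 and 166 bases before the start.
Dusp1: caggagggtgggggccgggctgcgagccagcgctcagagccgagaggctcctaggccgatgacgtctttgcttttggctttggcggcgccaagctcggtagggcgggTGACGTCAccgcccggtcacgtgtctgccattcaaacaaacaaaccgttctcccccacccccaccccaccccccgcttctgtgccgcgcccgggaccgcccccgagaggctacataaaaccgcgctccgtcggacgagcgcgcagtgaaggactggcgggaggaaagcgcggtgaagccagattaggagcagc
Btg2: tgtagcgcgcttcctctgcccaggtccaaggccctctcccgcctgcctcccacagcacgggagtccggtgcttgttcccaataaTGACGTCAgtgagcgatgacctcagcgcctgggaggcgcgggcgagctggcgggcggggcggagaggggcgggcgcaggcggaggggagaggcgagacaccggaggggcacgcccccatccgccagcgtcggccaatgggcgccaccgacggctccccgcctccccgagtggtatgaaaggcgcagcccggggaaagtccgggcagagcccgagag

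Between the libraries, low-early cells of the 4E-BP1-cKO were set against those of the control. Of 2586 genes with at least 100 UMIs over both, 125 (4.83%) were higher and 218 (8.43%) lower by over 1.5-fold in the 4E-BP1-cKO. TMM scaling gave 98 higher and 268 lower. Without the cell with most UMIs of each gene in each library, a setting added after seeing the data that by construction takes a larger share from 44 cells than from 168, 31 of 2380 were higher and 365 lower, with a median of -0.18 over all genes. These are 2 libraries, and genotype, mice and preparation cannot be told apart.

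The deleted gene was too thinly counted to check the labels in these cells. Eif4ebp1 had 21 UMIs in control and 5 in 4E-BP1-cKO low-early cells, 19.5 and 19.6 CPM. The study's genotyping names exon 2 of the conditional allele, and counts at the 3′ end of a transcript need not fall in it, so they check nothing here. Eif4ebp2, the related repressor, was at 55.7 CPM in control and 43.0 CPM in the 4E-BP1-cKO, and Eif4e at 79.9 and 66.5 CPM, neither past the fold. Of 13 tested genes of the 4E-BP, eIF4F and mTORC1 list only Rheb, the GTPase that activates mTORC1, was past the fold. Rheb was higher in the 4E-BP1-cKO (149 against 92.9 CPM), and at a ribosomal share of 3 to 7% its log2 ratio turned to -0.11. This is 1 of 13, where 4.83% of all genes were higher and 8.43% lower.

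Homeostatic genes of low-early cells were at close levels in the 2 libraries, with 1 exception. Of 33 tested 1 was lower, Tmem119, and none higher (median -0.05, beside -0.01 for all genes). Of all genes 8.43% were lower and 4.83% higher. Tmem119, a microglial surface protein, was at 554 CPM from 597 UMIs in control and at 184 CPM from 47 UMIs in the 4E-BP1-cKO, a ratio of 0.33 (exact 95% interval 0.241 to 0.447). Its log2 ratio of -1.59 ranged from -1.97 to -1.41 over 18 alternatives. The ratio was 0.34 in high-early, 0.30 in shallow, 0.37 in RP-poor and 0.26 in RP-high cells, so it was not particular to low-early cells. The 4E-BP1-cKO carries a Cre driver that uses the Tmem119 promoter and none is named for this control, and the driver and the rest of the library cannot be told apart. P2ry12 (-0.26), Cx3cr1 (-0.15), Mertk (-0.11) and Sirpa (0.16) did not pass the fold.

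Heat shock genes were the list with most members lower in the 4E-BP1-cKO. Of 14 tested, Bag3, Dnaja1, Dnajb1, Dnajb4, Hsp90aa1, Hspa1a, Hspa1b and Hsph1 were lower and none higher (median -0.67). Of all genes 8.43% were lower, with a median of -0.01. Hspa1b was at 1213 CPM in control and 278 CPM in the 4E-BP1-cKO (-2.12), Hsp90aa1 at 1211 and 473 CPM (-1.35), and Hspa1a at 745 and 227 CPM (-1.71). Hspa1a and Hspa1b are near-identical copies, so the division of reads between them is uncertain. For Hspa1a the value depended on the choice of cells, since with the early share measured at 1200 UMIs its log2 ratio was -0.14. The list's 4E-BP1-cKO to control ratio was 0.55 (0.51 to 0.58) in low-early, 0.53 (0.45 to 0.62) in shallow, 0.74 in high-early, 0.72 in RP-poor and 0.81 in RP-high cells, and whether these ratios differ was not tested beyond counting error. With the limit set to each library's own median, 5 of 15 tested were lower and 1 higher, with a median of -0.20.

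The cytokine list was at close levels in low-early cells of the libraries. Of 12 cytokines and chemokines Ccl12 alone was lower (median -0.03), and it passed the fold in 8 of 18 alternatives and turned to 1.13 with members chosen by the other immediate early genes. The list's ratio was 1.08 (1.02 to 1.14) in low-early cells beside 1.79 (1.73 to 1.85) in high-early cells. No NF-kappaB gene of 7 passed the fold (0.33), but the list's ratio in low-early cells was 1.28 (1.20 to 1.37). Cebpd and Klf4 were the lower ones of 19 other immediate early genes (0.12). Ccl12 and these 2 are shares near the 8.43% of all genes that were lower. The genes of the rule had a common upper limit in both libraries, so their sum says nothing on the genotypes. Among them Egr1 was higher, at 1424 against 798 CPM, and Dusp1 lower, at 360 against 586 CPM.

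Other leading genes were also lower in the 4E-BP1-cKO. Tmx4, a thioredoxin-related membrane protein, was at 864 CPM in control and 215 CPM in the 4E-BP1-cKO (-2.0). It stayed past the fold in 18 of 18 alternatives. Gm10563 (-2.30), Rsu1 (-1.88) and Rnaset2a (-1.56) rest on 6, 8 and 17 UMIs in the 4E-BP1-cKO, and Rnaset2a has a near-identical paralog.

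Some of the higher genes came largely from single cells. Edn1, which encodes endothelin, had 67 UMIs in 4E-BP1-cKO low-early cells against 48 in control (2.53), and 73.1% of the 67 came from 1 cell. Edn1 stayed past the fold in 17 of 18 alternatives, also without the top cell of each library. It fell to 0.30 with members chosen by the other immediate early genes. Chst8, a sulfotransferase, had 70.6% of its UMIs in 1 cell, and without the top cell of each library its log2 ratio went from 1.47 to -0.17. Clint1, a clathrin adaptor, had 21.2% in 1 cell and was at 462 against 231 CPM (0.99), past the fold in 18 of 18 alternatives. Mapkapk2 (1.33), Sec24a (1.37), Zc3h12c (1.14), Elmsan1 (1.11), Smim3 (1.05) and Baz1a (0.98) were the others, and each fell under the fold in at least 2 alternatives.

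**Figure D5:**
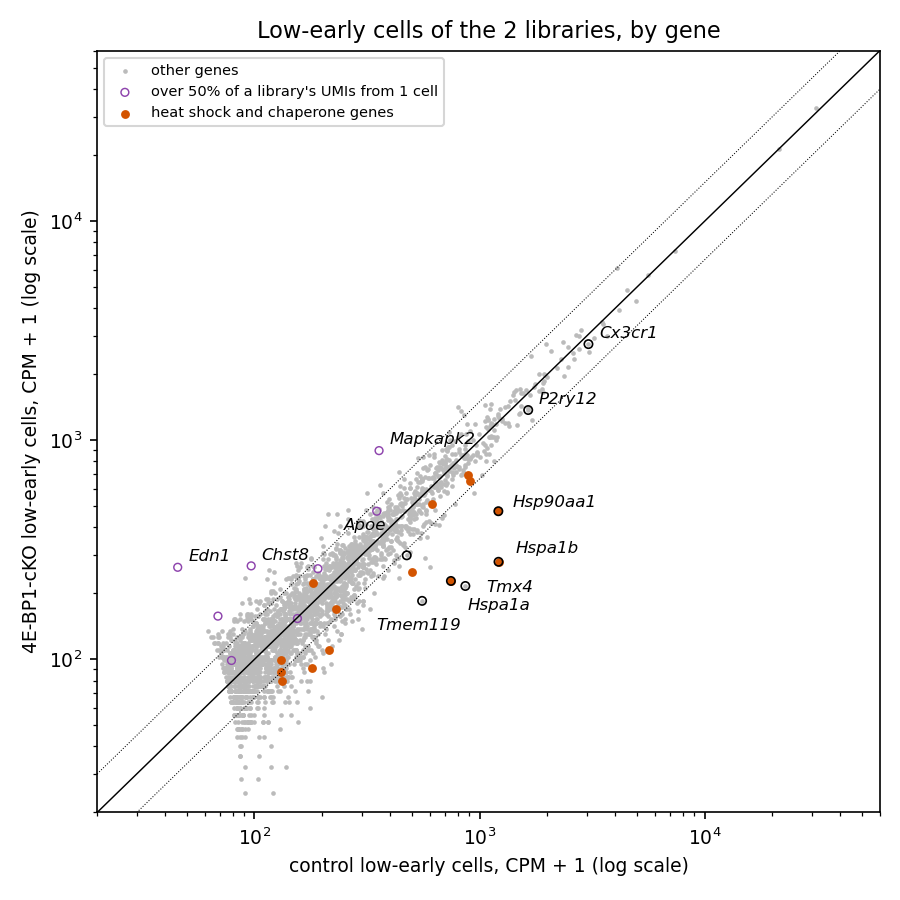
CPM + 1 of each tested gene in control (horizontal axis) and 4E-BP1-cKO (vertical axis) low-early cells, both log scales, with the line of equality and dotted lines at 1.5-fold. Tmem119, Hspa1b and Tmx4 lie far below equality (log2 -1.59, -2.12 and -2.0), and P2ry12 and Cx3cr1 lie close to it (-0.26 and -0.15).

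Low-early cells also varied among themselves. At 1200 UMIs per cell the variance over the mean was computed for 1909 genes with a mean of at least 0.1 UMIs in both libraries, and its median was 1.17 in control and 1.19 in the 4E-BP1-cKO, where 1 is counting noise. Malat1, a nuclear long noncoding RNA, had 9.31 and 15.2, and Cst3, the cathepsin inhibitor cystatin C, 8.81 and 15.7. Ccl4 had 6.70 and 8.44, with a UMI in 116 of 168 and 28 of 44 cells and up to 34 UMIs in 1 cell. Ccl3 (4.14 and 2.98) and Cd83, a marker of activated cells (4.70 and 3.47), were also among the 10 most variable genes, with Gm42418, Tsc22d2, Adamts1 and Myo1e. Chemokine transcripts were thus uneven across low-early cells rather than absent from them, and the cells are named here by their low early share and not as resting.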

How the data were processed

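The authors deposited raw UMI counts, 1 gene-by-barcode matrix per library (10x Genomics 3′ assay, Cell Ranger 8.0.1 and mm10 per the labels, 32285 genes). Doublets were not removed, since the rule removes none. Scrublet (scanpy 1.11.5) marked 4 control and 11 4E-BP1-cKO barcodes, 1 low-early cell in each. Removal of the barcodes it marked is among the alternatives. The study set the same gene and mitochondrial limits and then took out doublets called by scDblFinder. Fewer cells of each genotype remained there than are kept here, and those calls were not used.

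The members, gene lists and alternatives were chosen with earlier results of these data known. Deposited counts were summed over the cells of each class and library with Python 3.11.15, numpy 2.4.6, scipy 1.17.1 and pandas 2.3.3, and scaled to CPM with the class total. Ratios are log2 of CPM + 1, averaged over libraries so that both weigh equally. With 1 library per genotype and cells chosen on their values no test was run. Intervals are at 95% and exact (Clopper-Pearson, Poisson or conditional), except those of share differences (Newcombe's method on the exact limits). The code was tested on simulated data. TMM factors came from edgeR 4.0.16 in R 4.3.3.

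Named genes were the 5 markers, the 10 genes in each direction whose counting interval lay farthest from equality (without ribosomal protein genes against all other cells), the most abundant and extreme genes of each list, Eif4ebp1, Eif4ebp2, Eif4e, the top marker of each other cell type and the 10 most variable genes. Genes named outside this rule, including those that list a count, were chosen after their values were seen. Alternatives changed the cell filters, doublets, UMI minimum, ribosomal range, limit, early gene list, scaling, pseudocount, gene minimum, depth and library. The following were added after seeing the data: leaving out cells with 3 or more markers of another type and, between libraries, the member with most UMIs of each gene. Some genes that this rule names are not reported here.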

Additional observations from a re-analysis of the deposited data

Results flagged for a closer look

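Between the libraries several genes of low-early cells went one way while those of high-early cells went the other. None of these differences was tested, since each genotype is 1 library. The 4E-BP1-cKO to control ratio of CPM was 0.628 in low-early and 1.31 in high-early cells for Apoe, the lipid carrier, and 0.753 and 1.499 for Ctsc, the lysosomal dipeptidyl peptidase cathepsin C. For low-early cells the log2 ratio of Apoe went from -0.67 to 0.12 with each library's own median, and that of Ctsc from -0.41 to 0.498 with the mean over cells. The ratio was 0.842 and 1.13 for B2m, the class I light chain, and 0.913 and 1.11 for C1qb, a subunit of complement C1q. For Elmo1, an engulfment adaptor, it was 1.13 and 0.925. The low-early log2 ratio turned to 0.017 for B2m with the early share at 1200 UMIs and to -0.013 for Elmo1 at a ribosomal share of 3 to 7%. Cst3, the most abundant homeostatic gene, had a log2 ratio of low-early to high-early cells of 0.15 in control and -0.088 in the 4E-BP1-cKO.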

How the results depend on the processing

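Cells of 1 library per genotype limit every comparison, and counts of 5 to 20 UMIs in the 44 4E-BP1-cKO cells limit single genes. No paired analysis was possible because each genotype has 1 library and the labels carry no replicate numbers. The causes of the changes below were not tested, except where fewer cells, UMIs or genes enter by construction.

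The control share of low-early cells was 11.9% with a ribosomal range of 3 to 7% and 9.85% with the limit at the lowest 1/3 of the pool, and the 4E-BP1-cKO share was 6.74% and 6.52% there and 13.5% with each library's own median. Against all other cells, 1293 of 7115 tested genes were past the fold, and this became 815 of 7115 with a pseudocount of 10 CPM. It became 4793 of 20244 with no minimum of UMIs and 503 of 3692 with a minimum of 300. With every cell at 1200 UMIs it became 703 of 2904, and in the 4E-BP1-cKO alone 738 of 3079. The 13 higher homeostatic genes of this comparison became 6 with TMM factors. Against high-early cells, 860 of 4481 became 4175 of 17666 with no minimum, 345 of 1862 with a minimum of 300 and 264 of 994 at 1200 UMIs. They became 430 of 1523 in the 4E-BP1-cKO alone and 533 of 2058 with both sides at a ribosomal share of 4 to 6%. There 22 lower of 27 other immediate early genes became 11 of 13 at 1200 UMIs, and 12 lower of 16 cytokines became 5 of 6 at 1200 UMIs, 4 of 12 in control alone and 6 of 11 at the 4 to 6% share, with fewer genes tested in each. The 2 higher homeostatic genes became 6 at 3 to 7%, with members chosen by the other immediate early genes and at 4 to 6%, 5 with the limit at the lowest 1/3 of the pool and in control alone, 1 with a total without ribosomal, mitochondrial and early genes, and 0 with each library's median and with TMM factors. Between libraries, 125 higher and 218 lower genes became 31 and 365 without the top member. The 343 in all, of 2586 tested, became 9124 of 16071 with no minimum, 62 of 884 with a minimum of 300 and 59 of 441 at 1200 UMIs. Of the heat shock genes, 8 lower of 14 (median -0.67) became 5 of 14 at 3 to 7% (-0.37) and 5 of 15 with each library's median (-0.20). They became 5 of 12 with the limit at the lowest 1/3 of the pool (-0.52). With a minimum of 300 they became 4 of 7 (-0.997) and at 1200 UMIs 4 of 7 (-0.75), where fewer genes were tested and the median was lower still.

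Of the genes past the fold that were recomputed singly, Tsc1 against high-early cells turned to a log2 ratio of -0.18 at 4 to 6%. Between libraries the log2 ratio turned at 3 to 7% for Rheb (-0.11), Elmsan1 (-0.0055) and Smim3 (-0.075), without the top member for Chst8 (-0.17), with each library's median for Apoe (0.12), and for Ccl12 with the early share at 1200 UMIs (0.018) and with the other immediate early genes (1.13). Genes not past the fold also changed sign under some settings, among them Ctsc between libraries, from -0.41 to 0.498 with the mean over cells, and Cst3 (-0.13) and C1qa (-0.084) against high-early cells with TMM factors.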

Other observations

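Among genes outside the comparisons above, some nuclear and snoRNA-host long noncoding RNAs were lower in low-early cells. Of 10 tested against all other cells Neat1, Snhg1, Snhg12, Snhg3 and Snhg6 were lower and none higher (median log2 -0.51, beside 0.07 for all genes), and of 8 tested against high-early cells Neat1, Snhg1 and Snhg12 were (-0.54). Snhg12, a host gene of small nucleolar RNAs, was at 52.9 CPM in control low-early cells against 113 CPM in high-early cells and at 39.1 against 148 CPM in the 4E-BP1-cKO. Malat1, the most abundant of the list, was at 31175 and 33042 CPM in low-early cells and did not pass the fold in either comparison (-0.19 and -0.03). The summed list was at 0.997 of the high-early level in control and 0.942 in the 4E-BP1-cKO. Snhg6 had 15 UMIs in control low-early cells, where its log2 ratio to all other cells was -0.20, and none in 4E-BP1-cKO low-early cells. Of 14 glycolysis genes Hk2, which phosphorylates glucose, was lower than in all other cells, at 606 against 911 CPM in control and at 587 against 1035 CPM in the 4E-BP1-cKO (-0.70). This is 1 of 14, below the 9.43% of all genes that were lower.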
